A study of Mus musculus with 16 samples.

Results

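The 10 genes described here encode Siglecs and inhibitory checkpoint receptors, and were taken by symbol from the 17951 genes whose values were deposited. All 10 were listed. They comprise 4 Siglecs (Siglece, Siglech, Siglec1 and Cd22), 3 other immunoglobulin-like inhibitory receptors (Pilra, Pirb and Lair1) and 3 genes of the checkpoint axes (Pdcd1, Cd274 and Havcr2). The libraries hold RNA of microglia sorted as Cd11b+ and Cd45+ cells (the methods add a gate on Cx3cr1, a receptor of microglia and other myeloid cells) from the brains of 5xFAD mice, an amyloid model line whose transgenes are driven by the neuronal Thy1 promoter, and of their wild-type (WT) controls. Every mouse was injected with Methoxy-X04 (Me-X04), a fluorescent dye that binds amyloid beta (Aβ) aggregates, and the cells of transgenic (TG) mice were split into those without the dye (TG Me-X04-) and those that held it (TG Me-X04+). There were 7 WT, 5 Me-X04- and 4 Me-X04+ libraries. By their labels, the WT mice were 2 months old and the TG mice 6 months, while the study's methods give other ages, so that genotype and age cannot be told apart in a comparison with WT. Both TG groups carry the transgene and the same age label, and the 4 Me-X04+ libraries come from animals that also gave a Me-X04- library.

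Microglia read the state of their surroundings partly through receptors that restrain them. Siglecs bind sialic acid on glycoproteins and glycolipids, and most carry an ITIM, a tyrosine motif that recruits the phosphatases SHP-1 and SHP-2 and dampens activating signals. Pilra, Pirb and Lair1 work through the same motif but bind other ligands, while PD-1 (encoded by Pdcd1), its ligand PD-L1 (Cd274) and TIM-3 (Havcr2) are best known for limiting T cell responses.

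A WT library held 15623664 to 22119327 reads on these 17951 genes, a Me-X04- library 17216633 to 25184600 and a Me-X04+ library 22430251 to 27579017. The library size after the authors' scaling was 0.932 to 1.27 of these reads in WT, 0.790 to 1.43 in Me-X04- and 0.543 to 0.981 in Me-X04+ libraries. Genes at 0 reads numbered 55 to 1381, 83 to 703 and 450 to 1831. Me-X04+ replicates 1 and 2 held the most such genes (1831 and 1781). The libraries fell into 2 sets on the first principal component of their deviations from the group means, which held 37.8% of the variance. Set A holds WT 1 to 3 and replicates 1 and 2 of both TG groups, and set B holds all other libraries. The labels name no batch, so these are sets seen in the data. They were drawn from the same values that were tested, so p-values of a fit with a term for the sets can be too small. The summed RPKM (reads normalised to gene length and to the scaled library size) of 9 microglia markers ranged from 4898 to 7235 in WT, from 4305 to 8265 in Me-X04- and from 5482 to 8303 in Me-X04+ libraries.

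Proximal promoter sequence is shown for 2 members that were lower (Siglece and Pirb) and 2 that were higher (Pdcd1 and Cd274) in Me-X04+ than in WT microglia, as described further on. Each is the 250 bases before the RefSeq start on GRCm38.p6, read 5′ to 3′ on the gene's strand, and capitals mark GAGGAA on either strand, the core word bound by the myeloid factor PU.1. The windows are chr7:43660162-43660411 (minus strand) for Siglece, chr7:3720383-3720632 (minus strand) for Pirb, chr1:94052554-94052803 (minus strand) for Pdcd1 and chr19:29367188-29367437 (plus strand) for Cd274.
Siglece: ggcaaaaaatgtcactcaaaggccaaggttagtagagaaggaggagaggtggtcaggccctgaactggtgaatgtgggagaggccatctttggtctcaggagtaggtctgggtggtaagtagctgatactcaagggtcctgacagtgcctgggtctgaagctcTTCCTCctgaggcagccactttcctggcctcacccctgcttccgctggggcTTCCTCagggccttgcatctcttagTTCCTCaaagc
Pirb: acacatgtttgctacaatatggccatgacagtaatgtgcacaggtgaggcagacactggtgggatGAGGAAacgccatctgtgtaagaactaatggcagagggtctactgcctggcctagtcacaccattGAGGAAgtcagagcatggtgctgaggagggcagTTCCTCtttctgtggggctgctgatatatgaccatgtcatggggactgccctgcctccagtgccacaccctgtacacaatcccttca
Pdcd1: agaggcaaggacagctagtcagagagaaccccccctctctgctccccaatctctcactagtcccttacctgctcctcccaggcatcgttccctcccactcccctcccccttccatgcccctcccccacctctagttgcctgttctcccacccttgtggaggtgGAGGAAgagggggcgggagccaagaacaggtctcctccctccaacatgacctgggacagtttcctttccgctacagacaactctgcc
Cd274: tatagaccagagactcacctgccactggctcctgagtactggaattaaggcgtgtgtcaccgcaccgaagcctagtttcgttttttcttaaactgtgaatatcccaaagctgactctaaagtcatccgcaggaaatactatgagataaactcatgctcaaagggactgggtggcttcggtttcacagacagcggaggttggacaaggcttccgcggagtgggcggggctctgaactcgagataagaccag
GAGGAA stood 3 times in the Siglece window, 87, 36 and 11 bases before the start, and 3 times in the Pirb window, 185, 120 and 87 bases before it. Pdcd1 held it once, 87 bases before the start, and Cd274 and Cd22 did not hold it. Of the 9 members with a window, 6 held the word (also Pilra, Lair1 and Havcr2), against 23.3% of 32817 windows of the same length. The other 3 words searched on both strands were each held by 1 member. These were TTCNNNGAA, the word of STAT factors, in Siglech (7.01% of all windows), GAAANNGAAA, the interferon response word, in Pilra (2.97%), and TGANTCA, the AP-1 word, in Havcr2 (6.75%).

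Between Me-X04+ and Me-X04- microglia, Siglece fell and Cd274 rose. These 2 of 10 genes were differentially expressed (DE), against 5.49% of all genes (3.44% higher and 2.06% lower). A gene was called DE where limma gave an adjusted p under 0.05, over all genes, together with a log2 fold change (log2FC) of 0.7 or more in either direction. Cd22 and Pdcd1 lay higher in every Me-X04+ than in every Me-X04- library but were not DE, and Pirb lay lower within all 4 pairs of libraries of 1 animal without being DE. With Siglece, the groups did not overlap for 3 of 10 genes, against 7.93% of all genes. The median log2FC was 0.39 over the 10 genes and -0.09 over all genes, and 5 of 10 had an unadjusted p under 0.05, as did 3363 of all genes. Between Me-X04- and WT microglia, 1 of 10 genes was DE (Pdcd1, higher), against 0.201% of all genes (0.189% higher and 0.0111% lower). That gene was also the only one of the 10 whose groups did not overlap, against 1.06% of all genes. Pdcd1 had 0 reads in 5 of 7 WT libraries and passed the authors' filter on low genes through its TG libraries. Both counts are therefore not independent of that filter. The median log2FC was 0.13 over the 10 genes and 0.01 over all genes.

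**Figure D1:**
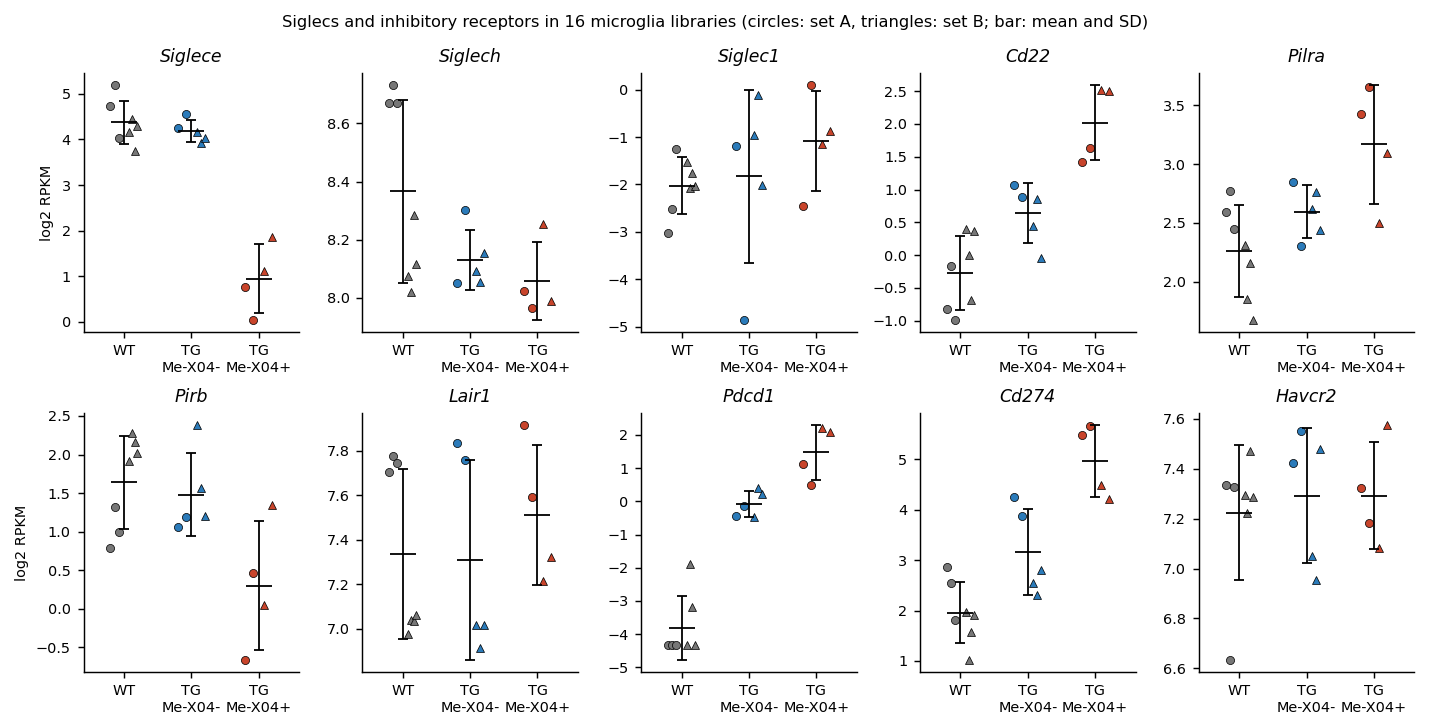
Log2 RPKM of the 10 genes (y axis, own scale per panel) in each of the 16 libraries by group, with circles for set A, triangles for set B and bars for the group mean and SD. Siglece lay between 0.04 and 1.87 in the Me-X04+ libraries and between 3.74 and 5.20 in all others, while Siglech stayed between 7.96 and 8.73.

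Siglece encodes Siglec-E, an inhibitory Siglec of mouse myeloid cells (GRCm38, chr7:43651070-43660161, minus strand). In the WT libraries its log2 RPKM was 3.74 at the lowest, 4.30 at the median and 5.20 at the highest. The Me-X04- libraries 1 to 5 held 4.25, 4.56, 4.16, 3.92 and 4.04, all within the WT range. The Me-X04+ libraries 1 to 4 held 0.76, 0.04, 1.12 and 1.87. Every Me-X04+ library lay below every other library. The means were 4.37 ± 0.48 (SD, n = 7), 4.18 ± 0.24 (n = 5) and 0.95 ± 0.76 (n = 4). Siglece was 9.43-fold lower in Me-X04+ than in Me-X04- microglia (log2FC -3.24, SE 0.33, adjusted p = 4.89e-05 by limma). It remained DE in all 31 alternatives, with log2FC between -3.55 and -2.68. Set A alone gave -4.01 and set B alone -2.54, and within the 4 pairs of 1 animal it ranged from -4.52 to -2.05. The fall rested on 27 to 157 reads in a Me-X04+ library against 579 to 904 in a Me-X04- library. In these bulk samples, fewer cells of a type and less RNA per cell cannot be told apart. Siglece did not differ detectably between Me-X04- and WT (log2FC -0.19, 95% interval -0.80 to 0.42, adjusted p = 0.999).

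Siglech encodes Siglec-H, an atypical Siglec that signals through the adaptor DAP12 (Tyrobp) and marks microglia and plasmacytoid dendritic cells (chr7:55768178-55778925, plus strand). Its log2 RPKM was the highest of the 10 genes in each group, with means of 8.37 ± 0.31 in WT, 8.13 ± 0.10 in Me-X04- and 8.06 ± 0.13 in Me-X04+ microglia. The 4 Me-X04+ libraries held 8.02, 7.96, 8.25 and 7.99, and the Me-X04- libraries 8.05 to 8.30. These groups overlapped, and the log2FC between them was -0.07 (95% interval -0.51 to 0.37, adjusted p = 0.893). The value depended on the scaling, since quantile normalization gave -0.82 (adjusted p = 0.0222) and made Siglech DE. In set A, the 3 WT libraries held 8.67 to 8.73 and both TG groups lay lower (Me-X04- by -0.51 and Me-X04+ by -0.70), while in set B the same differences were -0.02 and -0.00. Of 8 markers of plasmacytoid dendritic cells, 5 were among the genes analysed, and their summed RPKM was 17.3 to 27.2 in WT, 18.0 to 28.6 in Me-X04- and 34.5 to 94.5 in Me-X04+ libraries. Cox6a2 (15.2 to 59.9) made up much of the last range. Pacsin1 held 1.64 to 3.52 RPKM in Me-X04+ and 0.136 to 0.518 in Me-X04- libraries, and Bst2 4.55 to 26.1 and 5.87 to 15.6. Ccr9 was at 0 in 2 of the 4 Me-X04+ libraries. Of these 5 markers, 2 were DE between the TG groups, both higher with the dye, against 5.49% of all genes. Against WT, 2 were DE higher and 2 DE lower in Me-X04+ microglia, against 14.3% of all genes. Their part in the Siglech values was not tested.

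Siglec1 encodes sialoadhesin, a Siglec without an ITIM that marks border macrophages (chr2:131069220-131086765, minus strand). It was among the lowest of the 10 genes, with 13 to 55 reads in a WT, 3 to 164 in a Me-X04- and 16 to 113 in a Me-X04+ library. In log2 RPKM the Me-X04- libraries held -1.19, -4.86, -0.95, -0.12 and -2.02, and the Me-X04+ libraries -2.45, 0.10, -1.14 and -0.87. Replicate 2 was the lowest of its group without the dye and the highest of its group with it. The log2FC between these groups was 0.74 (SE 0.79, adjusted p = 0.680), and -0.02 without Me-X04- replicate 2. All 8 border macrophage markers were among the genes analysed, with a summed RPKM of 16.9 to 39.7 in WT, 19.2 to 29.6 in Me-X04- and 8.54 to 29.1 in Me-X04+ libraries. Stab1 made up most of this sum in WT and Me-X04- libraries and was DE lower in Me-X04+ libraries (2.44 to 7.35 RPKM, against 14.1 to 24.5 without the dye; log2FC -2.15, adjusted p = 0.00126). Folr2 held 1.94 to 9.68 RPKM in Me-X04+ and 0.699 to 1.65 in Me-X04- libraries and was DE only against WT, where it was higher (log2FC 2.94, adjusted p = 0.0139), while Mrc1 ranged from 0.535 to 9.65 RPKM over the Me-X04+ libraries, and Cd163 and Lyve1 were each at 0 in 1 of them. Their part in the Siglec1 values was not tested.

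Cd22 encodes a Siglec with ITIMs best known as a brake on B cell receptor signals (chr7:30865402-30880342, minus strand). Its log2 RPKM in WT libraries was -0.99 at the lowest, -0.17 at the median and 0.39 at the highest. The Me-X04- libraries held 1.07, 0.89, 0.44, 0.86 and -0.05, and the Me-X04+ libraries 1.42, 1.64, 2.53 and 2.5. The TG groups did not overlap, while WT and Me-X04- overlapped. The mean level was 2.02 ± 0.57 in Me-X04+, 0.64 ± 0.45 in Me-X04- and -0.27 ± 0.56 in WT microglia. Against WT, Cd22 was 4.90-fold higher in Me-X04+ microglia (log2FC 2.29, SE 0.37, adjusted p = 0.00038 by limma) and DE in all 30 alternatives. Against Me-X04-, the log2FC was 1.38 (95% interval 0.54 to 2.22, adjusted p = 0.0516), not DE. Cd22 became DE in 11 of 31 alternatives, among them limma voom on the reads (1.49, adjusted p = 0.00871). It was also DE in the fit with a term for the sets (1.42, adjusted p = 0.0167), which were drawn from these data. Between the TG groups, set A gave a step of 0.55 and set B one of 2.10. Between Me-X04- and WT, set A gave 1.64 and set B 0.40. These set differences were not tested. Of 8 B cell markers, 4 were among the genes analysed, and their summed RPKM was 96.6 to 187 in WT, 70.2 to 206 in Me-X04- and 160 to 303 in Me-X04+ libraries. Ighm made up most of this sum, with 87.5 to 167 RPKM in WT, 62.2 to 193 in Me-X04- and 149 to 281 in Me-X04+ libraries. Ighd held 5.54 to 36.0 RPKM in WT and 8.71 to 23.5 in Me-X04+ libraries. Of these 4 markers, 1 was DE against WT, higher in Me-X04+ microglia, against 14.3% of all genes. None was DE between the TG groups. The B cell receptor subunit Cd79a was at 0 in 3 of the 4 Me-X04+ libraries, with at most 4 reads in the fourth, while its partner Cd79b held 7 to 93 reads in them, at a median of 2.16 RPKM against 2.45 in WT. Their part in the Cd22 values was not tested. The antisense gene Gm29439 overlaps Cd22, and with no strand stated for the counting, their reads cannot be told apart where they overlap. It held 2 to 35 reads in a Me-X04+ library, where Cd22 held 175 to 662.

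**Figure D2:**
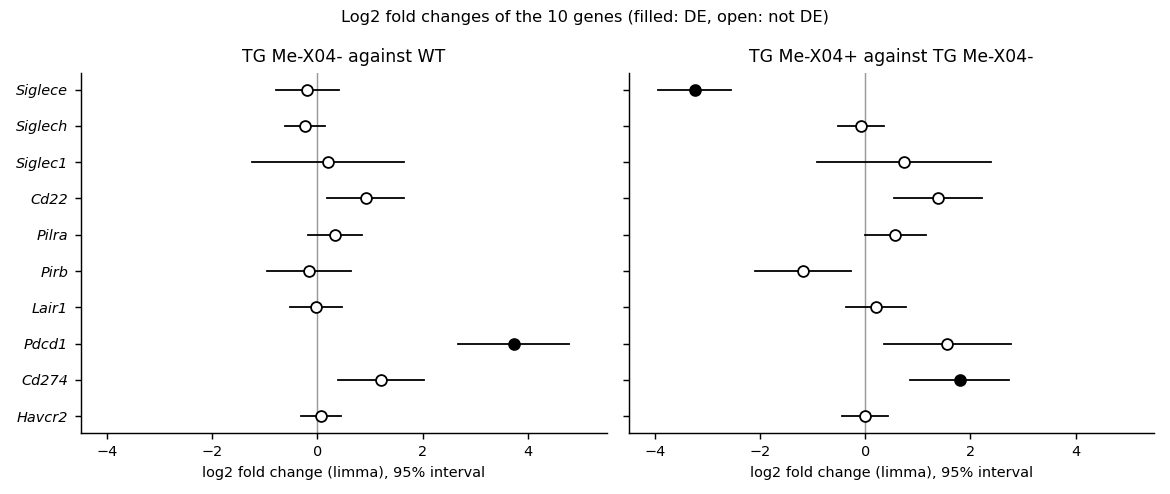
Log2 fold change from limma (x axis) of the 10 genes for Me-X04- against WT (left) and Me-X04+ against Me-X04- (right), with 95% intervals as lines and filled points for DE genes. Pdcd1 alone is filled on the left (3.74), and Siglece (-3.24) and Cd274 (1.80) are filled on the right.

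Among the other immunoglobulin-like receptors no gene was DE between the TG groups, and Pilra and Pirb moved in opposite directions between Me-X04+ and WT microglia. Pilra encodes an inhibitory receptor for certain O-glycosylated proteins, and its human counterpart lies at a locus linked to Alzheimer's disease risk (mouse gene at chr5:137821952-137836281, minus strand). Its log2 RPKM was 1.68, 2.31 and 2.77 at the WT lowest, median and highest, and 2.85, 2.31, 2.62, 2.76 and 2.44 in the Me-X04- libraries. In the Me-X04+ libraries it was 3.42, 3.66, 2.5 and 3.09, so that replicate 3 lay within the range of the Me-X04- libraries and the others above it. Pilra was 1.88-fold higher in Me-X04+ than in WT microglia (log2FC 0.91, SE 0.26, adjusted p = 0.0229). The call was lost without Me-X04+ replicate 1 (0.82, adjusted p = 0.0623) and without Me-X04+ replicate 2 (0.74, adjusted p = 0.0898), and also with only the 2 groups compared (adjusted p = 0.0576) or under the block by replicate number (0.68, adjusted p = 0.116). Against Me-X04- the log2FC was 0.57 (95% interval -0.01 to 1.15, adjusted p = 0.272), with 0.96 in set A and 0.19 in set B. Of the 50-base words of the Pilra transcripts, 20.8% were shared with other genes, mostly with Zcwpw1, which overlaps it on the opposite strand, and with Pilrb1 and Pilrb2. Zcwpw1 held 95 to 296 reads in a Me-X04+ library, where Pilra held 397 to 618.

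Pirb encodes a receptor for MHC class I and other ligands (chr7:3711409-3720391, minus strand). Its log2 RPKM was 0.79, 1.91 and 2.28 at the WT lowest, median and highest, and 1.06, 1.19, 2.38, 1.57 and 1.20 in the Me-X04- libraries. In the Me-X04+ libraries it was -0.67, 0.47, 0.05 and 1.34, and replicate 4 alone overlapped the other groups. Pirb was 2.53-fold lower in Me-X04+ than in WT microglia (log2FC -1.34, SE 0.41, adjusted p = 0.0333). This call was lost in 10 of 30 alternatives, among them each fit without WT replicate 4, 5, 6 or 7 or Me-X04+ replicate 1, 2 or 3 (adjusted p between 0.0565 and 0.112), and its log2FC over the fits that left out 1 library stayed between -1.69 and -1.02. Against Me-X04- the log2FC was -1.18 (95% interval -2.10 to -0.27, adjusted p = 0.134). Set A alone gave -1.22 and set B alone -1.02, and the values lay between -2.33 and -0.22 within the 4 pairs of 1 animal. Pirb became DE in 2 of 31 alternatives, with a term for the 2 sets (-1.10, adjusted p = 0.0337, sets drawn from these data) and without Me-X04+ replicate 4 (-1.53, adjusted p = 0.0485). Of its 50-base words, 34.0% were shared with other genes, most often with Gm14548, Pira2 and Lilra6 of its own family, so that reads may be split between copies. Pira2 held at most 18 reads in any library. Pira6, of the same family, held 25 to 95 reads in a Me-X04- and 8 to 35 in a Me-X04+ library (log2FC -0.99, adjusted p = 0.256), and Gm14548 and Lilra6 were not among the genes analysed.

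Lair1 encodes an inhibitory collagen receptor (chr7:4003402-4063204, minus strand). Its group means were 7.33 ± 0.38 in WT, 7.31 ± 0.45 in Me-X04- and 7.51 ± 0.31 in Me-X04+ microglia. The spread within the groups followed the sets, with 7.70 to 7.77 in the 3 WT libraries of set A and 6.98 to 7.06 in the 4 of set B. The Me-X04- libraries held 7.83 and 7.76 in set A and 7.02, 6.91 and 7.02 in set B. The Me-X04+ libraries held 7.92 and 7.59 in set A and 7.21 and 7.32 in set B. The log2FC between the TG groups was 0.20 (95% interval -0.36 to 0.77, adjusted p = 0.751), and its sign turned under quantile normalization (-0.46).

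Of the checkpoint genes, Pdcd1 and Cd274 were each DE in 2 of the 3 comparisons, and Havcr2 in none. Pdcd1 encodes PD-1, an inhibitory receptor of activated T cells that myeloid cells can also express (chr1:94038305-94052553, minus strand). It had 0 reads in 5 of 7 WT libraries and 11 and 3 in WT 5 and WT 6. The Me-X04- libraries held 22, 33, 36, 62 and 53 reads, and the Me-X04+ libraries 54, 39, 203 and 191. In log2 RPKM these were -0.43, -0.14, -0.46, 0.40 and 0.22 without the dye and 1.12, 0.48, 2.22 and 2.09 with it. None of the 3 groups overlapped another. With so few WT reads, Pdcd1 passed the authors' filter on low genes through its TG libraries. Its calls against WT are therefore not independent of that filter. Pdcd1 was higher in Me-X04- than in WT microglia by a log2FC of 3.74 (SE 0.50, adjusted p = 0.00157 by limma), a value that depends on how reads of 0 are treated. It ranged from 0.85 to 5.10 over 29 alternatives, and the call was lost on the log2(RPKM + 1) scale (0.85, adjusted p = 0.135). The mean RPKM was 0.0406 in WT, 0.923 in Me-X04- and 3.07 in Me-X04+ microglia. Between the TG groups the log2FC was 1.56 (95% interval 0.35 to 2.76, adjusted p = 0.134). Pdcd1 was higher in the dye-positive library in all 4 pairs of 1 animal, and became DE in 5 of 30 alternatives. Among them was the fit with a term for the sets (1.64, adjusted p = 0.0389), which were drawn from these data. Set A gave a step of 1.09 and set B one of 2.10, a difference that was not tested. Of 10 T cell markers, Lck and Cd28 alone were among the genes analysed. Their summed RPKM was 0.0206 to 0.189 in WT, 0 to 0.236 in Me-X04- and 0.272 to 0.338 in Me-X04+ libraries, against 1.35 to 4.59 RPKM of Pdcd1 in the Me-X04+ libraries. Lck was at 0 in 2 of the 4 Me-X04+ libraries, and Cd28 held 22 to 41 reads in each of them. Cd28 was itself DE higher in Me-X04+ than in Me-X04- microglia (log2FC 3.22, adjusted p = 0.00676) and than in WT (4.01, adjusted p = 0.000188), with 0 reads in 3 of 5 Me-X04- and 6 of 7 WT libraries. With so few reads elsewhere, Cd28 passed the authors' filter on low genes mainly through the Me-X04+ libraries. Its calls are therefore not independent of that filter. The part of Cd28 in the Pdcd1 values was not tested.

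Cd274 encodes PD-L1, the ligand of PD-1 (chr19:29367455-29388095, plus strand). Its log2 RPKM was 1.02 at the lowest, 1.90 at the median and 2.87 at the highest of the WT libraries. The Me-X04- libraries held 4.25, 3.88, 2.55, 2.31 and 2.80, and the Me-X04+ libraries 5.47, 5.66, 4.49 and 4.21. The TG groups overlapped at one point, where replicate 1 without the dye, of set A, passed replicate 4 with it, of set B. Cd274 was 3.48-fold higher in Me-X04+ than in Me-X04- microglia (log2FC 1.80, SE 0.45, adjusted p = 0.0247). Within each set the 3 groups did not overlap, with steps between the TG groups of 1.50 and 1.79 and steps between Me-X04- and WT of 1.66 and 0.94 in sets A and B. With a term for the set, the first comparison gave 1.69 (adjusted p = 0.000282) and the second 1.24 (adjusted p = 0.0104), and Cd274 was DE in both. The sets were drawn from these data, so both adjusted p-values can be too small. Without that term the second was not DE (log2FC 1.20, SE 0.39, adjusted p = 0.531). The call between the TG groups was lost without Me-X04- replicate 3, 4 or 5 or Me-X04+ replicate 1 or 2 (adjusted p between 0.0607 and 0.0851), and with those 2 groups alone in the fit (0.0654). An antisense gene overlaps Cd274 and shares most of the 12.4% of its 50-base words found elsewhere. That antisense gene was not among the genes analysed, so its reads are not known. With no strand stated for the counting, reads of the overlap cannot be told apart.

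Havcr2 encodes TIM-3, a receptor highly expressed by microglia (chr11:46454935-46481255, plus strand). Its mean log2 RPKM was 7.22 ± 0.27 in WT, 7.29 ± 0.27 in Me-X04- and 7.29 ± 0.21 in Me-X04+ microglia. The Me-X04- libraries held 7.42, 7.55, 7.05, 6.95 and 7.48, and the Me-X04+ libraries 7.32, 7.18, 7.08 and 7.57. The groups overlapped throughout, and the 95% interval of the log2FC between the TG groups was -0.44 to 0.44 (adjusted p = 0.999).

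**Figure D3:**
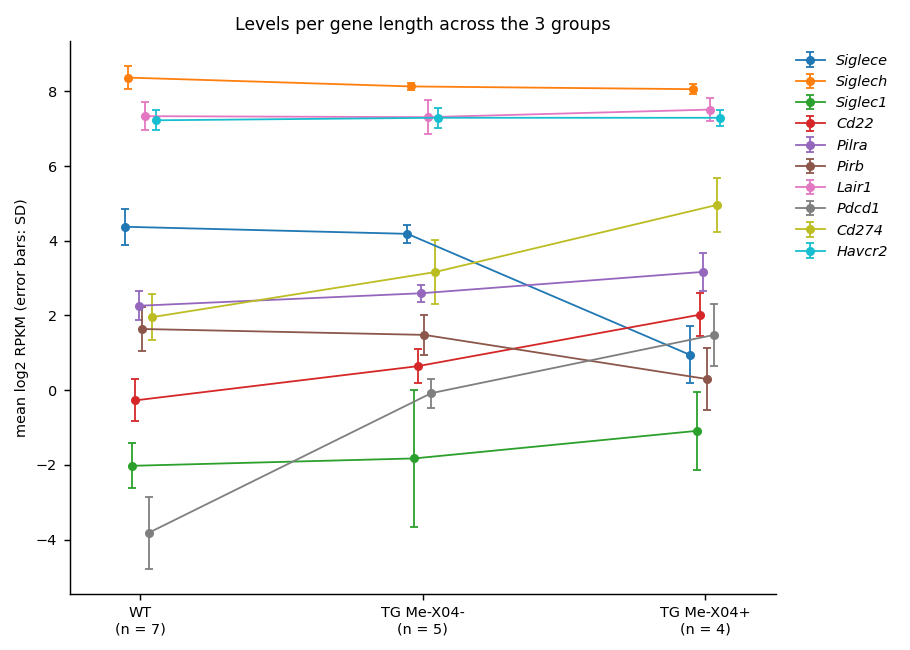
Mean log2 RPKM (y axis) of the 10 genes in the 3 groups, with SD as error bars, in levels per gene length. Siglech, Lair1 and Havcr2 stay at the top in all groups, Siglece drops from 4.18 to 0.95 between the TG groups, and Cd274 climbs from 1.96 in WT to 4.96 in Me-X04+ microglia.

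Per gene length, the order of the levels changed between the groups. Siglech was above Lair1 and Havcr2 in every library, while Lair1 and Havcr2 could not be ranked (Lair1 was above in 3 of 7 WT, 2 of 5 Me-X04- and 3 of 4 Me-X04+ libraries). Siglece held the fourth place in WT and Me-X04- microglia, with a level above 92.3% of all genes in WT. In Me-X04+ microglia it stood above 41.1% of all genes and below Pdcd1 in 4 of 4 libraries. Cd274 took the fourth place there, above 94.1% of all genes, after 57.3% in WT. Pilra, Cd274 and Pirb lay close together in WT, where Pilra was above Cd274 in 5 of 7 libraries and Cd274 above Pirb in 4 of 7.

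Against WT, 6 of 10 genes were DE in Me-X04+ microglia, against 14.3% of all genes (8.25% higher and 6.02% lower). Cd22, Pilra, Pdcd1 and Cd274 rose, and Siglece and Pirb fell. The groups did not overlap for 4 of 10 genes, against 10.5% of all genes. The log2FC was 5.29 for Pdcd1 (adjusted p = 5.28e-06, with a log2FC of 1.83 to 6.80 over 29 alternatives and 0 reads in 5 of 7 WT libraries), 3.00 for Cd274 (adjusted p = 9.67e-05) and -3.43 for Siglece (adjusted p = 1.46e-06). This comparison shares its Me-X04+ libraries with the comparison between the TG groups and its WT libraries with the other one. The call of Pdcd1 is not independent of the filter on low genes, which that gene passed through its TG libraries.

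Across the 16 libraries, the genes whose log2 RPKM were most like those of each member are given as a description, since all points share the group means and the 2 sets. Pdcd1 was most like Clec7a and Cst7 (Pearson r = 0.953 and 0.939), genes known to rise in disease-associated microglia. Cd274 was most like Psat1 and Cpd (0.977 and 0.974), and Pilra like the interferon-induced genes Oasl2 and Ifi207 (0.883 and 0.881). Cd22 was most like Cox6a2, one of the plasmacytoid dendritic cell markers above, and Sdc3 (0.947 and 0.944). Siglece was most like the unnamed gene models Gm42944 and Gm37876 (0.956 and 0.947). Pirb was most like Tcta and Apba1 (0.918 and 0.916), and Lair1, whose levels followed the sets, like Usf3 and Usp8 (0.965 and 0.962). The highest values for the other members were 0.913 for Siglech with Gm3468, 0.907 with Gm2956, 0.862 for Siglec1 with 2700029L08Rik, 0.826 with Mlst8, 0.828 for Havcr2 with Cdyl and 0.724 with Vps26a.

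The partners of these receptors were described by list, as counts beside the background of 5.49% DE genes between the TG groups. Of 5 other Siglecs, 4 were listed, and Siglecf was DE, from 2.09 ± 0.73 in Me-X04- to 4.09 ± 0.19 in Me-X04+ microglia (log2FC 2.01, adjusted p = 0.00117). Siglec-F, its product, is an ITIM-bearing Siglec best known from eosinophils, and its direction was opposite to that of Siglece. Cd33, the mouse counterpart of a human Alzheimer's disease risk gene, had a log2FC of -0.63 (adjusted p = 0.062) and was not DE between the TG groups. Against WT it was lower in Me-X04+ microglia (log2FC -1.08, adjusted p = 0.000415).

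Of 27 other inhibitory receptors of myeloid cells, 20 were listed, of which 5 were higher and 2 lower, with a median log2FC of 0.35. Cd5 (log2FC 3.45), Klrb1b (2.87) and Cd244a (2.09), inhibitory or dual receptors best known from lymphocytes, were higher, and Clec4a2, an ITIM-bearing C-type lectin, was lower (-2.31). Of 22 activating partners and adaptors, 13 were listed and 2 were higher, Cd200r4 (2.79) and the adaptor Fcer1g (1.02). Tyrobp, the adaptor of Siglech, had a log2FC of 1.90 (adjusted p = 0.104) and was not DE between the TG groups.

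All 17 effectors of ITIM signals were listed. Fyn, a Src family kinase, was higher (1.75), and the adaptor Dok3 (-3.30) and the cytokine signal inhibitor Socs3 (-2.29) were lower. The phosphatase genes Ptpn6 (log2FC -0.11, adjusted p = 0.888), Ptpn11 (0.38, adjusted p = 0.571) and Inpp5d (-0.44, adjusted p = 0.591) were not DE. Of 24 ligands, partners and regulators of the checkpoint genes, 19 were listed and 1 was DE, the interferon gamma receptor chain Ifngr1, which was lower (-0.86, adjusted p = 0.0319). Lgals9, which encodes the TIM-3 ligand galectin-9, had a log2FC of -0.16 (adjusted p = 0.81).

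Of 18 ligands of Pilra, Pirb and Lair1, 10 were listed. Pianp, which encodes a ligand of Pilra, rose from -0.95 to 2.62 (log2FC 3.57, adjusted p = 0.0049), and the MHC class I genes B2m (1.54) and H2-D1 (1.21) were higher. Angptl2, a ligand described for the Pirb family, was lower (-2.84). H2-D1 was also the only gene of the 7 lists that was DE between Me-X04- and WT microglia (log2FC 1.35, adjusted p = 0.0144, against 0.201% of all genes). Of 35 genes of sialic acid synthesis and removal, 27 were listed and 3 were DE, all higher. These were the sialyltransferase genes St8sia6 (2.53) and St6gal1 (1.15), and Ctsa (1.26), which encodes the protective protein of the sialidase neuraminidase 1. Neu1, which encodes that sialidase, had a log2FC of -0.00 (adjusted p = 0.997).

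**Figure D4:**
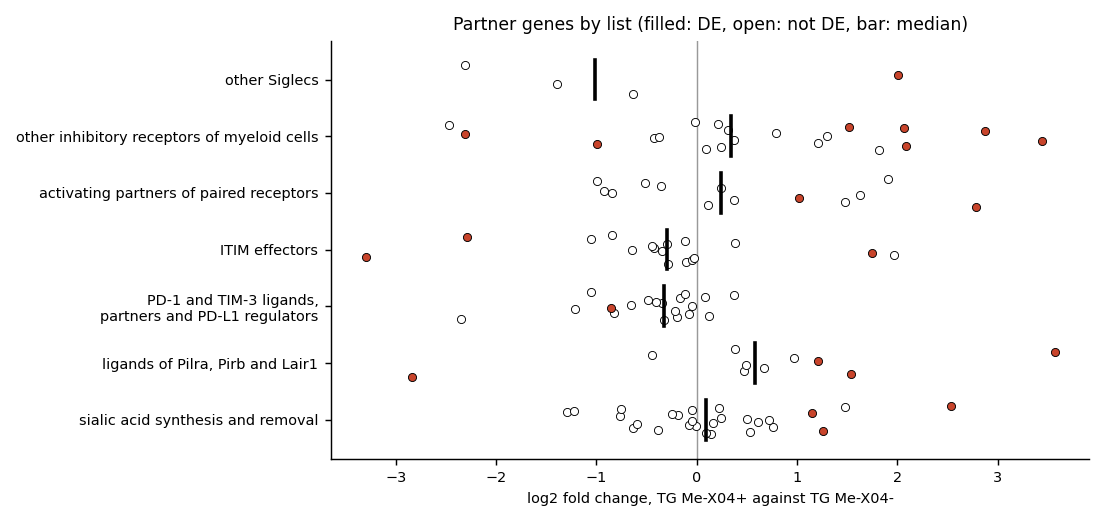
Log2 fold change between Me-X04+ and Me-X04- microglia (x axis) of the listed genes of 7 partner lists (y axis), 1 point per gene, filled where DE, with a bar at each list's median. The list of other inhibitory receptors holds 7 DE genes of 20, and the list of checkpoint ligands, partners and regulators 1 of 19.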

How the data were processed

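The deposited values describe RNA of sorted microglia in 16 libraries. The authors trimmed reads with Trim Galore 0.4.4, aligned them with STAR 2.5.4b to GRCm38, counted them with featureCounts on Gencode genes, removed low genes with filterByExpr and scaled libraries by TMM. They deposited log2 RPKM values, 1 column per library, with a small prior added to the reads. Gene length in bases and the authors' own comparisons (log2 fold changes, p-values and score columns) were deposited beside them, and those comparisons were not used. Whether counting used strand, and which of the sequencers named in the methods read which library, is not given in the sources used here.

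Whole reads were recovered from the equal steps of the values (100% within 0.01 of a read) and gave depths, zeros and 1 alternative. The paper's methods name edgeR's quasi-likelihood test on counts. As the values are log2 RPKM, limma 3.58.1 (R 4.3.3, variance trend, 3 groups in 1 fit, no covariate, two-sided) was used, with Benjamini-Hochberg adjustment over all 17951 genes. The fit was also run on simulated reads with a single dispersion for all genes. Those reads held neither the sets of libraries nor the pairing by animal, so the simulation does not cover either. Whether same-group libraries are separate animals follows from the labels. Intervals from counting were not computed. The files were read with data.table (version 1.17.8), and figures drawn with matplotlib 3.10.9 in Python 3.11.15. Shared words of 50 bases were counted on a later Gencode release than the authors used.

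The members and gene lists were chosen with earlier results of these data known. Named were all members, up to 4 DE genes per partner list, markers of cell types that a member marks, and the 2 genes of highest r per member (mean log2 RPKM of at least 0). Partner genes named beyond that rule for their role (Cd33, Tyrobp, Ptpn6, Ptpn11, Inpp5d, Lgals9, Neu1) were chosen after their values were seen. Alternatives were other variance models, library weights, median centring, quantile normalization, scaling by reads outside mitochondrial genes, pseudocounts of 1 and 0.1, a filter at a mean of 0, only the 2 groups compared, no fold threshold, a replicate block, a term for the 2 sets, voom on the reads, and each library left out.

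Same-numbered TG libraries carry 1 animal label, which gives the pairing. Their deviations from the group means correlated with a mean r of 0.317 (0.292 to 0.329), against 0.272 for other animals of the same set and -0.282 across sets. Same-numbered WT libraries are other animals.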

Additional observations from a re-analysis of the deposited data

Results flagged for a closer look

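One library stood apart in its group for 1 gene. The log2 RPKM of Havcr2 in WT 2 was 6.63, while the next of the 7 WT libraries held 7.22, a gap of 0.703 of the group's range. The 10 genes in 3 groups gave 30 groups tested, and chance alone marks about 1 in 20 such groups.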

How the results depend on the processing

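Siglece between the TG groups, and Siglece, Cd22, Pdcd1 and Cd274 between TG Me-X04+ and WT, kept their direction and their DE call in every alternative run. Between the TG groups, the number of DE members was 2, and it became 5 under quantile normalization and with a term for the 2 sets, 4 with a pseudocount of 1 or 0.1 and with voom on the reads, and 1 with only the 2 groups compared. Leaving out 1 library gave 1 to 3. Over all genes the number was 986, against 828 under quantile normalization, 2142 with the term for the sets and 470 with only the 2 groups compared. It was 980 and 1009 with pseudocounts of 1 and 0.1, 1025 with voom, and 552 to 1100 without 1 library. Between TG Me-X04- and WT it was 1, and it became 0 with a pseudocount of 1, 0 with the filter at a mean of 0, which removes Pdcd1, and 2 with the term for the sets. Leaving out 1 library gave 1 to 1 DE members, and 4 to 6 between TG Me-X04+ and WT. There the number was 6 (2562 of all genes) and became 4 with only the 2 groups compared (2092) and 5 with voom (2328) or the filter (2034 of 13324). It became 7 under quantile normalization (2566 of all genes, with Siglech at -1.12, adjusted p = 0.00042). With the replicate block by animal, the TG groups gave 2 DE members among 1079 DE genes (Siglece -3.28, Cd274 1.71), and no member's call between them changed. With the number as a replicate block over all libraries, the counts were 2, 1 and 4 (894, 18 and 2537 over all genes), with Pilra (0.68, adjusted p = 0.116) and Pirb (-1.09, adjusted p = 0.107) lost against WT, where numbers do not mark an animal. Values near 0 changed sign. Between the TG groups, Lair1 gave -0.46 under quantile normalization and -0.072 when scaled by reads outside mitochondrial genes. Havcr2 gave 0.14 with library weights, 0.031 with median centring, 0.030 and 0.046 with the block by number and by animal, 0.00065 with the set term and 0.0035 with voom (without 1 library, -0.10 to 0.068, and Siglec1 -0.020 to 1.19). Between TG Me-X04- and WT, Siglec1 gave -0.0077 under quantile normalization, Pirb 0.022 with the block, Lair1 0.0013 with weights and 0.088 when scaled outside mitochondrial genes, and Havcr2 -0.16 with weights. Without 1 library, Siglec1 ranged from -0.23 to 0.96, Lair1 from -0.16 to 0.074 and Havcr2 from -0.030 to 0.15. Between TG Me-X04+ and WT, Lair1 gave -0.54 under quantile normalization and -0.025 with the block, and Havcr2 gave -0.023 with weights, -0.68 under quantile normalization and -0.093 when scaled outside mitochondrial genes (without 1 library, -0.031 to 0.14). That last scaling moved the median log2FC of all genes between the TG groups from -0.09 to -0.36, where Siglece stood at -3.51 and Cd274 at 1.53. The cause of these changes was not tested. Depth limits Pdcd1 and Siglec1 most, with at most 203 and 164 reads in a library.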
